A study of Mus musculus with 6 samples.

Results

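Type VI, VIII, XII, XIV, XV, XVI and XVIII collagens do not build the thick fibrils of type I collagen but sit between, on and around them. The genes of 10 of their chains (Col6a1, Col6a2, Col6a3, Col8a1, Col8a2, Col12a1, Col14a1, Col15a1, Col16a1 and Col18a1) were chosen by symbol and class, with no threshold on their values. All 10 were found among the 24061 genes of the count table, and 9 passed the filter on low counts. The exception was Col8a2.

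RNA was sequenced from 6 libraries of cultured mouse lung fibroblasts, described as resident fibroblasts of fibrotic lungs. All cells came from mice carrying a TGF-alpha transgene, so the controls carry it too; TGF-alpha is a growth factor that acts through the EGF receptor. In 3 libraries (numbered 1 to 3) the cells had received a stealth control siRNA, and in 3 (numbered 4 to 6) a stealth siRNA against Wt1, a zinc finger transcription factor. The comparison asks how transcripts of fibrotic lung fibroblasts differ when Wt1 is knocked down. The labels do not give the promoter of the transgene, the strain, age or number of the mice, the time after transfection or a batch. Nothing in them states that the 3 libraries of a siRNA came from different cultures or mice. The p-values therefore measure the spread among these libraries, which may be technical.

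A collagen molecule is a triple helix of chains with a regular glycine repeat. Type VI collagen is classically made of an alpha-1, an alpha-2 and an alpha-3 chain that join in equal amounts and form beaded filaments close to cells. Types XII, XIV and XVI are FACITs (fibril-associated collagens with interrupted triple helices), which lie on fibrils and connect them with other matrix. Type VIII is a short-chain collagen that builds networks in vessel walls and in the cornea. Types XV and XVIII are multiplexins, collagens of basement membrane zones that carry sugar chains. The C-terminal piece of type XVIII is endostatin, an inhibitor of vessel growth, and type XV has a related piece. In lung, fibroblasts are a main source of several of these chains.

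Total counts were 26.1 to 32.1 (in units of 1e6) per library, and levels are given as counts per 1e6 counts (CPM) after TMM scaling, which sets libraries to a common level over most genes. Wt1 stood at 48.8, 55.7 and 51.5 CPM in the controls and at 11.4, 8.63 and 7.92 CPM after Wt1 siRNA (log2 fold change -2.48 ± 0.16 SE, Benjamini-Hochberg adjusted p = 5.98e-06 by the quasi-likelihood test of edgeR). The 8 fibroblast markers summed to 3942 to 4111 CPM in controls against 4138 to 4483 CPM after knockdown, with 3 higher and 1 lower (Pdgfra, a growth factor receptor, -1.17 ± 0.13 on the log2 scale), and none was at 0. The 8 smooth muscle and pericyte markers summed to 369 to 412 against 325 to 399 CPM, with 0 higher and 0 lower (edgeR; 1 higher and 2 lower at an unadjusted p below 0.05). The 8 epithelial markers (28.3 to 39.0 against 27.3 to 31.8 CPM) and the 8 macrophage and leukocyte markers (21.2 to 29.3 against 22.4 to 29.0 CPM) were low. Scgb1a1, of airway epithelium, and Cd3e, of T cells, had no count in any library. The part of these cell types in the changes below was not tested.

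After Wt1 siRNA, the FACIT gene Col14a1 rose 2.05-fold, the multiplexin gene Col15a1 fell 3.42-fold and Col8a1 fell 1.32-fold. The chains of type VI collagen, the other FACIT genes and Col18a1 did not pass the test. Of the 9 tested genes 1 was thus higher and 2 were lower at an adjusted p below 0.05 (edgeR). Among all 14190 genes tested 19.3% were called, 9.05% higher and 10.3% lower. The median log2 fold change of the 9 genes was 0.04, beside 0.00349 over all genes tested. With library size scaling these medians were -0.040 and -0.082, and 31.9% of the genes called were higher in place of 46.8%; the 3 collagen calls stood. The sign of the collagen median was not stable, at 0.17 without control library 2 and -0.14 without control library 3, where Col8a2 was also tested. Control and knockdown values did not overlap for 4 of the 9 (Col6a3, Col8a1, Col14a1 and Col15a1), beside 36.4% of all genes. No test of these counts against other genes was made.

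The spread between control libraries differed among the genes. The coefficient of variation over the 3 controls was lowest for Col6a3 (6.01%), Col8a1 (6.53%) and Col12a1 (8.26%) and highest for Col6a2 (26.8%). The other 5 tested genes lay between 16.6% and 19.4%.

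**Figure D1:**
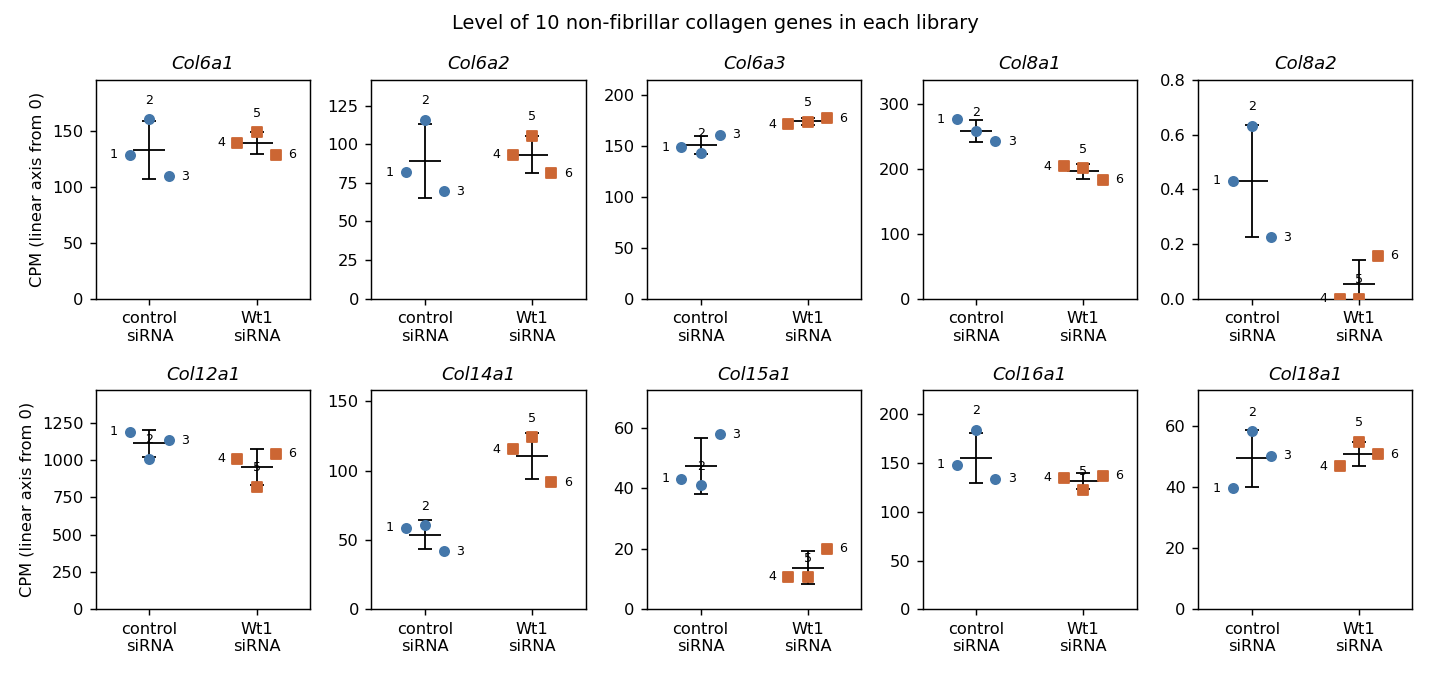
Level of each of the 10 genes in each library, in CPM on linear axes from 0; circles are control siRNA libraries 1 to 3, squares Wt1 siRNA libraries 4 to 6, and bars the mean ± SD (n = 3), cut at 0 for Col8a2. Col14a1 was 41.8 to 60.7 CPM in controls against 91.8 to 124 CPM after knockdown, and Col15a1 41.0 to 57.8 against 10.6 to 20.03 CPM.

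**Figure D2:**
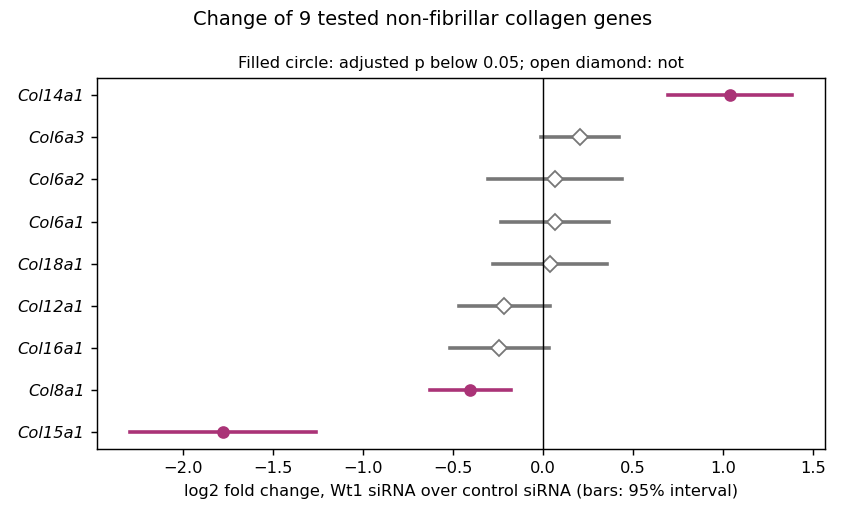
Log2 fold change (Wt1 siRNA over control siRNA) of the 9 tested genes with the 95% interval of the fit; filled circles passed an adjusted p below 0.05 and open diamonds did not. Col15a1 (-1.77), Col8a1 (-0.40) and Col14a1 (1.04) have intervals away from 0.

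The multiplexin genes were Col15a1 (gene ID 12819, GRCm38 chromosome 4, 47207655 to 47313167, plus strand) and Col18a1 (gene ID 12822, chromosome 10, 77052178 to 77166530, minus strand). Counts cover whole genes, so transcripts from different starts of a gene are not separated. Col15a1 shares 14 exonic bases with an antisense gene, Gm12426, whose reads cannot be told apart there without strand. Col15a1 had 43.1, 41.0 and 57.8 CPM in control libraries 1 to 3 and 10.7, 10.6 and 20.03 CPM in Wt1 siRNA libraries 4 to 6. Every Wt1 siRNA library lay below every control, and library 6 held nearly as much again as either of its companions. Wt1 stood at 11.4, 8.63 and 7.92 CPM in libraries 4 to 6, on 306, 238 and 253 reads. A relation of Col15a1 to the Wt1 level within the group was not tested. Group means were 47.3 ± 9.16 CPM in controls and 13.8 ± 5.42 CPM after knockdown (SD, n = 3), and the log2 fold change was -1.77 ± 0.24 (SE; 95% interval -2.29 to -1.26; edgeR adjusted p = 4.24e-04). Without Wt1 siRNA library 6 the change was -2.15, and without control library 3 it was -1.60.

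Col18a1, which encodes the endostatin-bearing chain, had 39.7, 58.4 and 50.3 CPM in the controls and 46.9, 54.9 and 50.9 CPM after Wt1 siRNA. The Wt1 siRNA values lay inside the range of the controls. The means of 49.5 ± 9.36 and 50.9 ± 4.01 CPM (SD, n = 3) gave a log2 fold change of 0.04 ± 0.15 (adjusted p = 0.887, edgeR), with an interval from 0.826-fold to 1.28-fold. The fit therefore leaves room for a change of that size, but not for one as large as that of Col15a1. With library size scaling the sign turned (-0.040).

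Because both genes are counted in the same library, their ratio does not depend on scaling. The log2 ratio of Col15a1 to Col18a1 reads was 0.12, -0.51 and 0.20 in the controls and -2.13, -2.37 and -1.34 after Wt1 siRNA. Per kilobase of transcript, Col15a1 stood at 0.958 ± 0.236 times Col18a1 in controls and at 0.266 ± 0.105 times after Wt1 siRNA (SD, n = 3). The log2 ratio differed by -1.88 between the groups, which did not overlap (exact two-sided permutation test p = 0.10, the smallest that 3 against 3 libraries can give; 0.20 after Benjamini-Hochberg adjustment over 6 ratios).

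Endothelial cells also make type XV collagen, and their markers were followed beside it. The 8 endothelial markers summed to 105 to 130 CPM in controls against 88.6 to 108 CPM after knockdown, so that the groups overlapped. Of the 7 tested, 1 was lower, Kdr, the VEGF receptor 2 (17.2 ± 3.88 to 9.36 ± 2.31 CPM), and 0 were higher; at an unadjusted p below 0.05, 2 were lower and 1 higher. Pecam1, an endothelial adhesion molecule, went from 13.1 ± 1.495 to 12.0 ± 0.792 CPM (-0.13 ± 0.17 on the log2 scale). Their part in the fall of Col15a1 was not tested. In bulk libraries, fewer cells of a type and less RNA per cell cannot be told apart.

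The 7 mesothelial markers were also read, since Wt1 is used to mark mesothelium. They summed to 217 to 268 CPM in controls against 160 to 203 CPM after knockdown, without overlap. They split, with 4 lower and 2 higher at an adjusted p below 0.05 (edgeR); Lrrn4 was -2.10 ± 0.15 and Krt19 1.12 ± 0.19 on the log2 scale. None of the 7 had 0 counts in all libraries, and their part in the changes of Col15a1, Col8a1 and Col14a1 was not tested.

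Of the FACIT genes, Col14a1 passed the test and Col12a1 and Col16a1 did not. Col14a1 (gene ID 12818, chromosome 15, 55307644 to 55520803, plus strand) encodes the type XIV chain, which binds fibrils and their small proteoglycans. It had 58.8, 60.7 and 41.8 CPM in the controls and 116, 124 and 91.8 CPM after Wt1 siRNA. The lowest Wt1 siRNA library stood above the highest control. Group means were 53.8 ± 10.4 CPM in controls and 111 ± 16.8 CPM after knockdown (SD, n = 3), and the log2 fold change was 1.04 ± 0.16 (95% interval 0.69 to 1.38; edgeR adjusted p = 9.65e-04). It was 0.89 to 1.16 when a library was left out.

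Col12a1 (gene ID 12816, chromosome 9, 79598987 to 79721141, minus strand), the type XII chain of tissues under tension, was the most abundant of the 10 genes. Its levels were 1189, 1010 and 1134 CPM in the controls and 1009, 819 and 1042 CPM after Wt1 siRNA. The highest Wt1 siRNA library lay above the lowest control. The log2 fold change was -0.22 ± 0.12 (adjusted p = 0.231, edgeR), with an interval from 0.723-fold to 1.03-fold. Without Wt1 siRNA library 5 it was -0.11.

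Col16a1 (gene ID 107581, chromosome 4, 130047817 to 130099277, plus strand), the type XVI chain, had 148, 184 and 134 CPM in the controls and 135, 122 and 137 CPM after Wt1 siRNA. Control library 2 was the high value, and without it the log2 fold change was -0.10 in place of -0.24 ± 0.13. The change did not pass (adjusted p = 0.219, edgeR; interval 0.698-fold to 1.025-fold).

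Among the FACIT genes only the ratio of Col12a1 to Col14a1 reads was computed, and it was lower in every Wt1 siRNA library than in any control. The log2 ratio of Col12a1 to Col14a1 reads was 4.34, 4.05 and 4.76 in the controls and 3.13, 2.72 and 3.51 after Wt1 siRNA, with no overlap. Per kilobase, Col12a1 exceeded Col14a1 10.5 ± 2.63 times in controls and 4.39 ± 1.18 times after Wt1 siRNA (SD, n = 3). The difference of the log2 ratios was -1.27 (exact permutation test, two-sided, p = 0.10, the smallest possible; adjusted 0.20).

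None of the type VI genes passed the test. Col6a1 (gene ID 12833, chromosome 10, 76708792 to 76726044) and Col6a2 (gene ID 12834, 76595756 to 76623630) lie 85161 bases apart on the minus strand, and Col18a1 follows 326133 bases beyond Col6a1. Col6a3 (gene ID 12835, chromosome 1, 90766860 to 90844001, minus strand) encodes the longest chain, whose C-terminal piece is released as endotrophin. Col18a1, the next of the 10 genes along chromosome 10 after Col6a1, did not pass either. Other genes in the gap between them were not looked at.

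Col6a1 had 128, 160 and 109 CPM in the controls and 139, 149 and 129 CPM after Wt1 siRNA, all inside the range of the controls. Its log2 fold change was 0.07 ± 0.14 (adjusted p = 0.797, edgeR; interval 0.851-fold to 1.29-fold). Col6a2 had 81.8, 116 and 69.6 CPM in the controls and 93.2, 105 and 81.4 CPM after Wt1 siRNA, also inside that range. Its change was 0.07 ± 0.17 (adjusted p = 0.836; interval 0.810-fold to 1.36-fold). The high value of both was control library 2, without which the changes were 0.23 (adjusted p = 0.217) and 0.30 (adjusted p = 0.145); with library size scaling they turned to -0.019 and -0.018.

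Col6a3 behaved differently within the groups. It had 148, 143 and 161 CPM in the controls and 171, 173 and 177 CPM after Wt1 siRNA, so that the groups did not overlap by a small margin. The log2 fold change of 0.21 ± 0.10 did not pass (adjusted p = 0.177, edgeR; interval 0.993-fold to 1.34-fold). In control library 2, where Col6a1 and Col6a2 were highest of the controls, Col6a3 was lowest. In Wt1 siRNA library 6, where Col6a1 and Col6a2 were lowest of their group, Col6a3 was highest.

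The log2 ratio of Col6a1 to Col6a2 was 0.65, 0.47 and 0.65 in the controls and 0.58, 0.50 and 0.66 after Wt1 siRNA. These values spanned a narrow range in both groups, and the means differed by -0.01 (exact permutation test p = 1.0). The ratio of Col6a2 to Col6a3 ranged over -0.86, -0.31 and -1.21 in the controls and -0.87, -0.72 and -1.12 after Wt1 siRNA, a difference of -0.11 (exact permutation test p = 0.80, adjusted 0.96). That of Col6a1 to Col6a3 differed by -0.13 (exact permutation test p = 0.70, adjusted 0.96). The SDs of the ratios of Col6a2 and Col6a1 to Col6a3 were 0.45 and 0.36 in the controls, beside 0.10 for Col6a1 to Col6a2. After knockdown they were closer together, at 0.20, 0.12 and 0.082. Per kilobase, controls held 1.71 ± 0.120 times as much Col6a1 as Col6a2 RNA and 2.19 ± 0.545 times as much as Col6a3 RNA (SD, n = 3). These ratios depend on the length chosen: with the union of exons they were 2.87 and 2.43, and that of Col6a2 to Col6a3 went from 1.30 to 0.859.

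**Figure D3:**
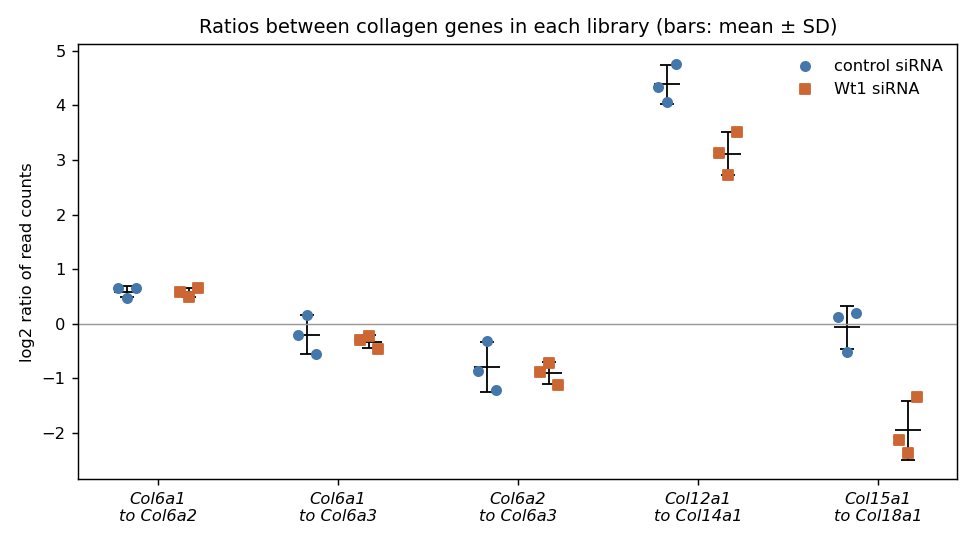
Log2 ratio of read counts between genes in each library; circles are control siRNA, squares Wt1 siRNA, and bars the mean ± SD (n = 3). The ratios among the type VI genes overlapped between the groups, while those of Col12a1 to Col14a1 and of Col15a1 to Col18a1 were lower in all 3 Wt1 siRNA libraries.

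The type VIII genes were far apart in level. Col8a1 (gene ID 12837, chromosome 16, 57624256 to 57754737, minus strand) had 276, 258 and 242 CPM in the controls and 204, 201 and 183 CPM after Wt1 siRNA. The groups did not overlap, and the spread within each was small. The means of 259 ± 16.9 and 196 ± 11.5 CPM (SD, n = 3) gave a log2 fold change of -0.40 ± 0.10 (95% interval -0.63 to -0.18; edgeR adjusted p = 0.0175). The call was lost without control library 1 (adjusted p = 0.0646), knockdown library 4 (0.0718) or knockdown library 6 (0.0615), with changes of -0.35, -0.43 and -0.35.

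Col8a2 (gene ID 329941, chromosome 4, 126286794 to 126314330, plus strand), which encodes the partner chain of type VIII collagen, had 14, 18 and 6 reads in the controls and 0, 0 and 5 reads after Wt1 siRNA. These are 0.432, 0.633 and 0.226 CPM against 0, 0 and 0.156 CPM. A count of 0 allows up to 0.112 and 0.109 CPM in libraries 4 and 5 (3 counts per library, counting error only). The gene did not pass the filter and has no test in the fit; with no filter its fitted log2 fold change was -2.89 (adjusted p = 0.308, edgeR). That value depends on the prior count, and without single libraries it ran from -2.34 (without library 5) to -6.63 (without library 6, adjusted p = 0.0620), where it could be fitted. The ratio of Col8a1 to Col8a2 rests on these few reads and on the pseudocount. The log2 difference was 3.02 with 0.5 added to each count (exact permutation test p = 0.10, adjusted 0.20). With 5 added it was 1.0045 (exact permutation test p = 0.20 before adjustment).

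The sequences before the transcription starts are shown for both type VIII genes, of which Col8a1 fell, and for Col18a1 as a gene that did not pass. Each is the 250 bases before a RefSeq start on GRCm38.p6, 5′ to 3′ on the gene's strand. A window was found for 8 of the 10 genes; Col12a1 and Col14a1 had none. Capitals mark matches on either strand to GCGGGGGCG, a site type shared by WT1 and EGR factors, to GTGGGAG, to the GC box GGGCGG or to TATAAA.
Col8a1, chr16:57754738-57754987, minus strand: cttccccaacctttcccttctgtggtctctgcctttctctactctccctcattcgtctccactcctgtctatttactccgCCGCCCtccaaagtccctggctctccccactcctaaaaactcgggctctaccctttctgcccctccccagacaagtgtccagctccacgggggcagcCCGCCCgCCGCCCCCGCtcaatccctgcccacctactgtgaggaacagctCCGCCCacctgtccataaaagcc
Col8a2, chr4:126286544-126286793, plus strand: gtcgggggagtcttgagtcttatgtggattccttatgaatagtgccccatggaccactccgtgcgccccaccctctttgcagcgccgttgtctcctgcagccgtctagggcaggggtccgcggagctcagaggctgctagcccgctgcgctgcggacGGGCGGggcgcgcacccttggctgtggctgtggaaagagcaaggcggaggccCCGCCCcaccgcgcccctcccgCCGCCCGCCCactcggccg
Col18a1, upstream start, chr10:77166531-77166780, minus strand: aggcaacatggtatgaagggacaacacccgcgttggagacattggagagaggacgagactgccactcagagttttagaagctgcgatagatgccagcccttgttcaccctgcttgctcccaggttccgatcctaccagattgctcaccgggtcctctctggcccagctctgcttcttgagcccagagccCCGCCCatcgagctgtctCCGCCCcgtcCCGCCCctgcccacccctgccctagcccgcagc

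The Col8a1 window held 4 GC boxes and 1 match to GCGGGGGCG, which is in 2.57% of the 32851 windows searched and which overlaps a GC box here. The Col8a2 window also held 4 GC boxes and the upstream Col18a1 window 3. The window of the other Col18a1 start (77113706 to 77113955) held none of the 4 motifs. Of its 250 bases, 241 lie in GENCODE M21 exons of the gene. Exons of the same gene also covered 124 bases of the Col6a1 window and 226 bases of the Col6a2 window at 76623405. GC boxes were in 32.7% of the windows searched, GTGGGAG in 8.25% and TATAAA in 12.4%. The search left out 1 chromosome. The window listed for Col15a1 ends at 47208011 and held none of the 4 motifs, but it lies inside the RefSeq gene span given above, and GENCODE M21 places the first exon at 47208161, so the annotations differ on the start. The 8 genes with a window had 10 windows, and GCGGGGGCG was found in that of Col8a1 alone. G and C made up 60.8% of the Col8a1 window, beside a median of 52.4% over all windows searched. A match is a string of letters and not a measured binding site, and no match says only that these letters are not in the window.

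Levels were compared between genes per kilobase of the longest RefSeq-matched GENCODE transcript (RPKM). In controls the order was Col12a1 (96.5 ± 7.97 RPKM), Col8a1 (50.7 ± 3.31), Col6a1 (32.4 ± 6.29), Col16a1 (29.8 ± 4.93), Col6a2 (19.1 ± 5.12), Col6a3 (14.9 ± 0.896), Col18a1 (9.77 ± 1.85), Col14a1 (9.47 ± 1.83), Col15a1 (9.14 ± 1.77) and Col8a2 (0.0994 ± 0.0471; SD, n = 3). The ranges over libraries overlapped between Col6a1 and Col16a1, between Col6a2 and Col6a3, between Col18a1 and Col14a1 and between Col14a1 and Col15a1, so those neighbours were not separated. After Wt1 siRNA, Col14a1 stood at 19.5 ± 2.96 RPKM, level with Col6a2 (20.05 ± 2.58) and Col6a3 (17.2 ± 0.311), and Col15a1 at 2.66 ± 1.05 RPKM. The rank of Col14a1 went from 8 to 6, while Col15a1 stayed at 9. With the union of all exons as length, the ranks were 7 and 5 for Col14a1 and 8 and 9 for Col15a1, and Col6a3 came before Col6a2 in controls (12.6 and 10.7 RPKM).

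**Figure D4:**
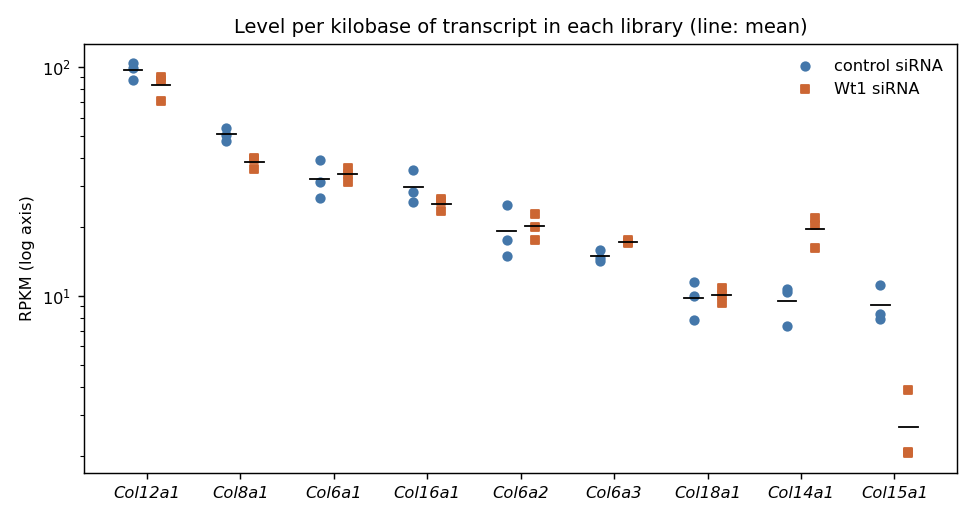
Level of 9 of the 10 genes per kilobase of transcript (RPKM, log axis) in each library; circles are control siRNA, squares Wt1 siRNA, and lines the means. In controls Col18a1, Col14a1 and Col15a1 overlapped between 7.37 and 11.5 RPKM, and after Wt1 siRNA they were separate, with means of 10.05, 19.5 and 2.66 RPKM.

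The 10 genes together took 2114, 2031 and 2000 CPM in the controls and 1925, 1759 and 1912 CPM after Wt1 siRNA, with no overlap (2048 ± 58.6 and 1865 ± 92.2 CPM, SD, n = 3; exact two-sided permutation test p = 0.10, the smallest possible). The difference of -183 CPM was -298 CPM with library size scaling and -129.9 CPM without Wt1 siRNA library 5. Most of it came from Col12a1, since without it the sums were 937 ± 78.4 and 908 ± 35.6 CPM and overlapped. All 44 collagen genes listed took 33572 ± 6065 CPM in controls against 48263 ± 4833 CPM after knockdown. Of these, the 11 fibrillar genes took 28285 ± 5628 CPM in controls and 42146 ± 4503 CPM after knockdown. A share of this total therefore moves with the fibrillar genes as well as with the 10 genes. The share of the 10 genes in these collagen counts was 6.65%, 5.04% and 6.99% in the controls and 3.93%, 3.34% and 4.44% after Wt1 siRNA. The shares did not overlap (exact permutation test p = 0.10, the smallest possible).

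Of 10 tested genes of fibril-forming chains 7 were higher, 1 lower and 2 not called (9.05% higher and 10.3% lower over all genes), with a median log2 fold change of 0.62 beside 0.04 for the 9 genes above. No test of the difference between the classes was made. Col5a3 (1.15 ± 0.13), Col11a1 (1.01 ± 0.12) and Col1a1 (1.13 ± 0.19) had the smallest p among them, and the change of Col14a1 was of similar size. The 1 called lower was Col3a1, of type III collagen (-0.46 ± 0.11). Col24a1, with few reads, also had a negative change (-1.34 ± 0.77) but did not pass (adjusted p = 0.257, edgeR). Both were named after their values were seen. Of 14 tested genes of other non-fibrillar chains, 3 were higher and 1 lower, with a median of 0.20. Col7a1, the anchoring fibril collagen, rose by 0.92 ± 0.19, Col4a1, of basement membrane, by 0.34 ± 0.11 and its partner chain Col4a2 by 0.51 ± 0.15 with overlapping groups, while Col23a1, a transmembrane collagen, fell from 17.1 ± 1.36 to 4.002 ± 0.954 CPM (-2.09 ± 0.21; edgeR adjusted p = 8.82e-05). The fall of Col15a1 lies between those of Col8a1 and Col23a1.

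**Figure D5:**
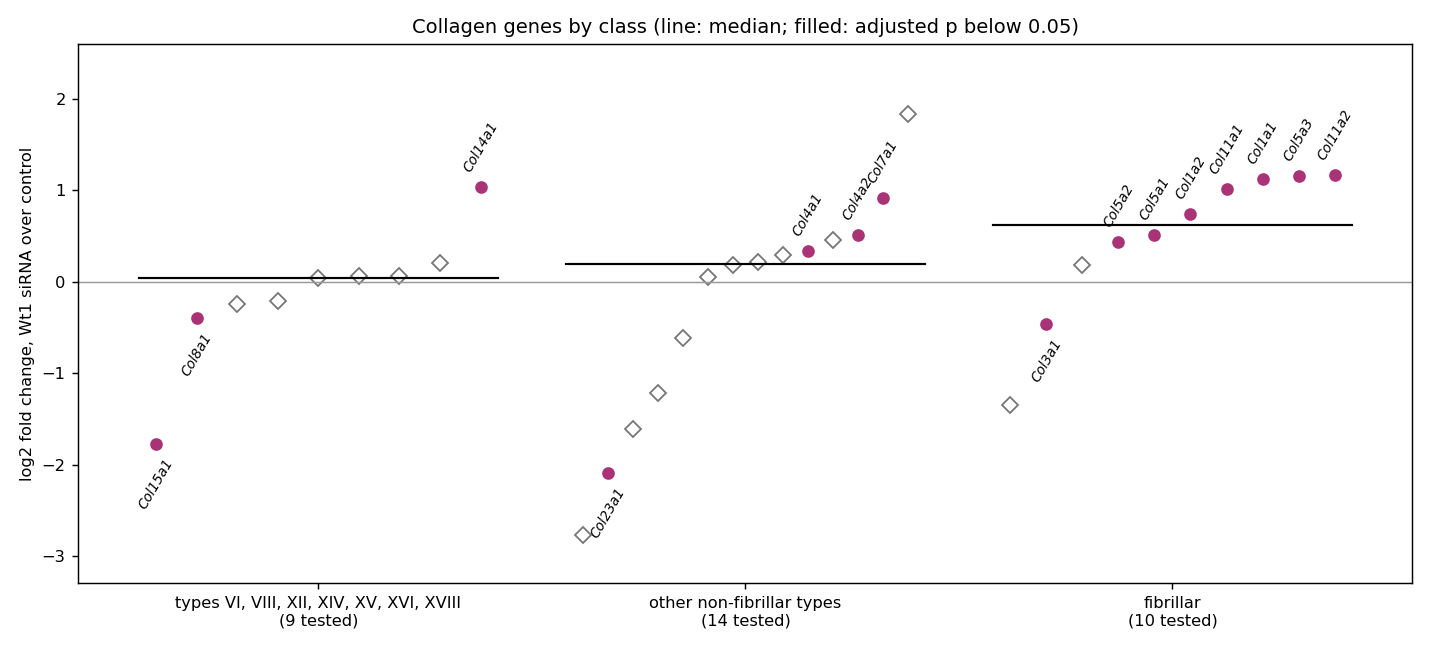
Log2 fold change (Wt1 siRNA over control) of each tested collagen gene in 3 classes, ordered by value within a class; filled circles passed an adjusted p below 0.05, open diamonds did not, and lines are class medians (0.04, 0.20 and 0.62). Of the fibrillar genes 7 lie above 0 as filled circles, against 1 of the 9 genes at the left (types VI, VIII, XII, XIV, XV, XVI and XVIII).

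Of 16 tested receptor genes that bind collagens or their fragments, 4 were higher and 2 lower (median 0.02), beside 9.05% higher and 10.3% lower of all genes tested. Itgb1, the beta chain of the collagen-binding integrins (0.50 ± 0.10), Itgav, an integrin alpha chain (0.63 ± 0.12), and Ddr2, a receptor kinase for fibrillar collagen (0.38 ± 0.10), were higher. Itga1, the alpha chain of a collagen-binding integrin (-0.41 ± 0.12), and Kdr, to which endostatin has been reported to bind (-0.88 ± 0.23), were lower. Antxr1, a cell surface protein that binds type VI collagen, had 262 ± 31.8 and 263 ± 20.3 CPM (log2 fold change 0.00482 ± 0.12, adjusted p = 0.985, edgeR). Antxr2, its relative and a receptor for type VI collagen, rose by 0.42 ± 0.11 (adjusted p = 0.0210); these last 4 were named after their values were seen.

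Of 17 tested matrix partners, 4 were higher and 3 lower (median 0.03), again beside 9.05% and 10.3% of all genes. Loxl2, an enzyme of the lysyl oxidase family that cross-links collagen, rose by 1.04 ± 0.10, Hspg2, the proteoglycan perlecan, by 0.63 ± 0.10, and Dcn, decorin, a small proteoglycan that binds type VI and XIV collagens, by 0.63 ± 0.13. Lum, lumican, a relative of decorin, rose by 0.67 ± 0.14. Tnxb, tenascin-X, fell by 0.61 ± 0.15, Nid2, a nidogen of basement membrane, by 0.58 ± 0.16 and Fmod, fibromodulin, by 1.45 ± 0.39; these 4 were named after their values were seen. Decorin, lumican and Col14a1 were thus higher after Wt1 siRNA, while fibromodulin was lower. Bgn, another small proteoglycan of the list, had 5006 ± 601 and 5117 ± 732 CPM (log2 fold change 0.03 ± 0.12, adjusted p = 0.899, edgeR). It too was named after its values were seen. A link of Col14a1 to these genes was not tested. Of 10 tested proteases that can cut collagens or release their fragments, 2 were higher and 2 lower (median -0.08), beside the same shares of all genes. Mmp2, a gelatinase, fell by 0.52 ± 0.11 and Mmp14, which activates pro-Mmp2, by 0.39 ± 0.10, while Htra1, a serine protease, rose by 0.51 ± 0.12 and Ctsl, cathepsin L, which releases endostatin, by 0.40 ± 0.10. Bmp1, a procollagen protease that can release endotrophin, had 308 ± 24.1 and 306 ± 6.39 CPM. Mmp14 and Bmp1 were named after their values were seen.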

How the data were processed

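The authors deposited raw whole-number read counts per Entrez gene ID for 6 libraries, without normalization. RNA was purified on silica columns, per the labels' protocols. Of software, the submitters' processing notes list TopHat, DESeq, CASAVA 1.8 and bcl2fastq, with the build mm10 (GRCm38) and no roles; how reads were counted, and on which strand, is not stated in these sources. Antisense transcripts overlap 14 exonic bases of Col15a1 (Gm12426) and 0 of the other 9 genes. Gene IDs were named with RefSeq GRCm38.p6 (23976 of 24061); transcript lengths came from GENCODE M21.

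Groups were compared with edgeR 4.0.16 in R 4.3.3 (quasi-likelihood F test), with TMM factors (0.940 to 1.07), filterByExpr (14190 genes), the siRNA group as the only term and Benjamini-Hochberg adjustment over all genes, threshold 0.05. Each SE was obtained as the size of the log2 fold change over the square root of F. Ratios used a pseudocount of 0.5. Chi-square values per degree of freedom within groups were 18.9 to 70.9, so no pair agreed within counting noise. On simulated counts for 14190 genes the procedure recovered 24.0% of genes changed 1.5-fold and 69.0% of those changed 2-fold. Each simulation changed only a small part of the genes, drawn at random over all levels, whereas 19.3% were called in the data. These shares therefore do not give the power for the collagen genes that did not pass. Floors of counts cover counting error only; intervals of fold changes include the spread between libraries.

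The genes and lists were chosen with earlier results of these data known. Of each list, up to 3 called genes with the smallest p and no overlap between groups are named. Alternatives were DESeq2 1.42.0, limma-voom 3.58.1, other scalings and filters, and leaving out libraries. No protein sequences were used here.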

Additional observations from a re-analysis of the deposited data

How the results depend on the processing

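The calls of Col14a1, Col15a1 and Wt1, and their directions, held under RLE normalization, library size scaling, both other filters, robust shrinkage, DESeq2, limma-voom and without any of the 6 libraries in turn. The change of Col14a1 was 0.89 to 1.16, that of Col15a1 -2.15 to -1.60 and that of Wt1 -2.65 to -2.38 with a library left out. Without a library the number of lower collagen genes was 1 to 2, through Col8a1, whose call was kept under the other alternatives. With library size scaling 855 genes were higher in place of 1284, so the share of higher genes among those called was 31.9% in place of 46.8%, and Col6a1 (-0.019), Col6a2 (-0.018) and Col18a1 (-0.040) changed sign without passing. Leaving out libraries gave 578 to 1253 higher and 785 to 1406 lower genes, the lowest both without Wt1 siRNA library 4, and 836 higher without library 5. In those fits Col6a1 ranged from -0.055 to 0.23, Col6a2 from -0.080 to 0.30 and Col18a1 from -0.093 to 0.18. The ratio differences ranged from -0.071 to 0.030 for Col6a1 to Col6a2, from -0.30 to 0.056 for Col6a1 to Col6a3 and from -0.32 to 0.13 for Col6a2 to Col6a3; the cause was not tested. Those of Col12a1 to Col14a1 (-1.46 to -1.07), Col15a1 to Col18a1 (-2.19 to -1.67) and Col8a1 to Col8a2 (2.45 to 4.14), and the summed level (-213 to -129.9 CPM), kept their sign. The summed level with library size scaling (-298 CPM) and the Col8a1 to Col8a2 ratio with a pseudocount of 5 (1.0045) differ from the main values by over 1.5 times. The median of the tested collagen genes ranged from -0.14 to 0.17 with a library left out. No paired analysis was made, because the labels do not state which control and Wt1 siRNA libraries, if any, belong together. Depth limits Col8a2 alone among the 10 genes, with 38 reads over the controls and 5 after Wt1 siRNA; for the others the spread between libraries sets the error.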
